A study of Mus musculus with 8 samples.

Results

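Bhlhe22 was set beside 9 transcription factors of the pallium, the part of the forebrain that forms the cortex: Neurod1, Neurod2, Neurod6, Neurog2, Tbr1, Eomes, Emx1, Emx2 and Fezf2. These 10 genes, of 15705 in the deposited table, were chosen by symbol with their values in every library and their difference between genotypes already known, so those values are given as a description with no p-value for a member, and counts of calls that include members are descriptions too. The tissue was the lateral ganglionic eminence (LGE), the embryonic source of striatal projection neurons, dissected from mouse embryos at E18.5. All embryos were homozygous for a floxed allele of Isl1, a LIM-homeodomain factor of ventral forebrain neurons. The 4 controls were Isl1 flx/flx without Cre, and the 4 conditional knockouts (cKO) were Dlx1-Cre; Isl1 flx/flx littermates, in which recombination follows the activity of Dlx1 in ventral forebrain cells. Cre was present in the cKO group alone, so its presence and the loss of Isl1 cannot be told apart, and the labels give neither litter nor sex. Poly(A) RNA was sequenced from each LGE, and values are the authors' scaled and rounded read values unless RPKM, a value per length, is named.

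Bhlhe22, also called Bhlhb5, encodes a basic helix-loop-helix (bHLH) repressor of the Olig family that acts in postmitotic neurons, among them projection neurons of the cortex, where it works with the zinc-finger protein Prdm8. In the pallium, Neurog2 starts glutamatergic neurogenesis in progenitors, Eomes marks the intermediate progenitors, and Neurod1, Neurod2, Neurod6 and Tbr1 follow in their neurons. Emx1 and Emx2 are homeobox genes of the pallial ventricular zone, and Fezf2 is a zinc-finger factor of pallial progenitors and deep-layer projection neurons. LGE neurons make GABA instead, and a dissection of the LGE borders on the pallium.

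The tissue label was checked against LGE and striatal genes. Mean RPKM in controls and cKO were 117 ± 4.14 and 119 ± 2.68 for Foxp1 and 67.0 ± 2.48 and 68.5 ± 1.83 for Gad2 (SD, n = 4 in each group). Slc17a7, which encodes a glutamate transporter of cortical neurons, lay between 0.0278 and 0.365 RPKM over the 8 libraries. Other pallial genes were higher, with control means of 3.63 RPKM for Neurod6, 2.62 for Neurod2 and 2.56 for Tbr1. Slc17a7 alone thus does not measure the pallial share of the tissue. The genotype labels could not be checked on Isl1, since the deposited value covers the whole gene and does not show the deleted part. It was 3517 to 4186 in controls and 4930 to 5971 in cKO. Of 15698 genes tested with limma, 1045 passed an adjusted p of 0.05, 451 of them higher in cKO, and the median change of all genes was 0.0059 on the log2 scale.

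The libraries of control 3 and cKO 4 stood apart from the others of their group in the pallial factors, before any comparison of genotypes. In control 3, 8 of the 9 factors were at least 2-fold below the mean of the other 3 controls on the log2 scale, and in cKO 4, 7 of the 9 were at least 2-fold below the other 3 cKO. The same drop was found for 1.42% of all tested genes in control 3 and 1.60% in cKO 4. This measure was added after the values were seen. Each change of the 10 genes is therefore given with all 8 libraries and with the 6 that remain without control 3 and cKO 4. For the other genes the second value is given where it changed the call, and for Prdm8 and Nr4a2 too. Control 3 and cKO 4 were picked for their low pallial values. For genes low in those libraries, a smaller SE without them is thus in part by construction. In bulk samples such as these, fewer cells of a type and less RNA per cell cannot be told apart.

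Bhlhe22 was several-fold higher in cKO, while the 2 groups overlapped for each of the 9 factors, for Emx1 through control 3 alone. Its values were 64, 91, 17 and 66 in controls 1 to 4 and 335, 331, 300 and 294 in cKO 1 to 4. Every cKO library was above every control, and the lowest control was the library that was also low in pallial factors. The mean was 59.5 ± 30.9 in controls and 315 ± 21.0 in cKO (SD, n = 4 in each group), a ratio of 5.29. The fitted difference was 2.61 ± 0.39 (SE) on the log2(value + 1) scale, the eighth largest rise among all genes tested. Without control 3 and cKO 4 it was 2.13 ± 0.14, and the authors' deposited table gives 2.43. Per length, Bhlhe22 stood at 0.773 ± 0.399 RPKM in controls and 4.07 ± 0.285 RPKM in cKO. The gene lies on chromosome 3 (chr3:18054174-18057517, plus strand, GENCODE annotation of GRCm38, ENSMUSG00000025128.7).

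**Figure D1:**
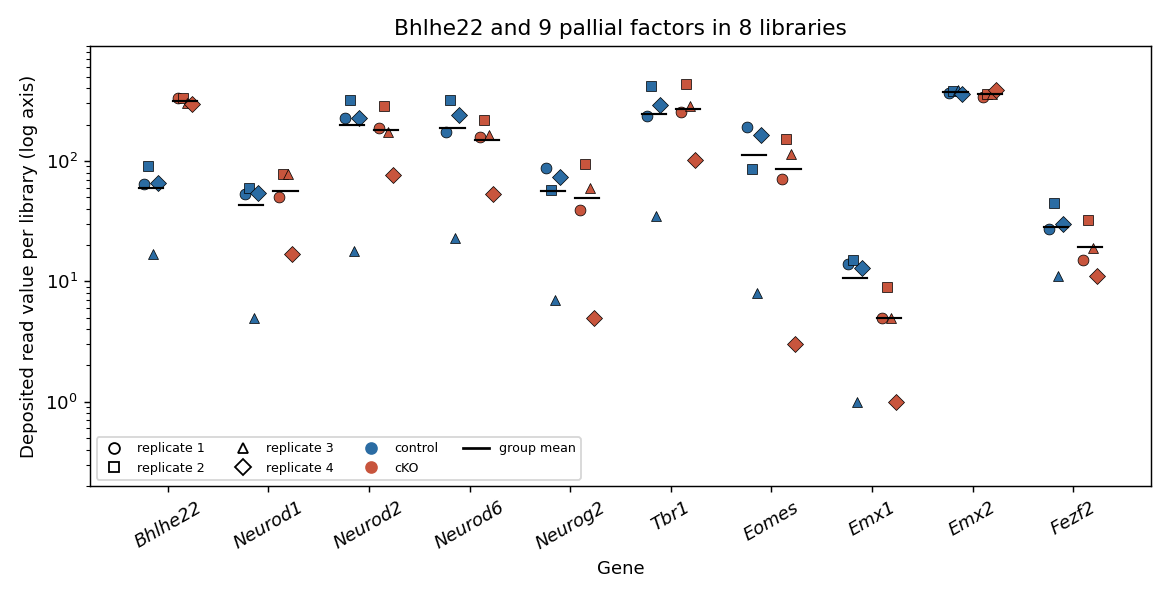
Deposited value of each gene in each library (log axis), with controls in blue, cKO in red, a marker shape for each replicate number and a bar at the group mean. Bhlhe22 is between 294 and 335 in all 4 cKO libraries and between 17 and 91 in controls, whereas the 2 groups overlap for each of the 9 factors.

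The spread of Bhlhe22 also differed in size between the groups. Its highest control was 5.35 times its lowest, and its highest cKO library was 1.14 times its lowest. On the log2 scale the SD was 1.04 in controls and 0.096 in cKO. The 17 of control 3 makes most of the spread in controls, where the other values are 64 to 91.

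Neurog2, the proneural gene of pallial progenitors, had values of 87, 57, 7 and 73 in controls and 39, 95, 59 and 5 in cKO. Eomes, the T-box gene of intermediate progenitors, had 192, 85, 8 and 163 in controls and 71, 151, 115 and 3 in cKO. Both genes were lowest in control 3 and cKO 4, and in both the groups overlapped over most of their range. The change was -0.28 ± 0.88 for Neurog2 and -0.57 ± 1.16 for Eomes (SE, log2). With those libraries left out these became -0.24 ± 0.30 and -0.37 ± 0.34. With cKO 4 alone left out both changed sign, to 0.56 for Neurog2 and 0.62 for Eomes. Eomes showed the largest drop of the 10 genes within a group, at -3.96 log2 units in control 3 and -4.76 in cKO 4.

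The NeuroD genes encode bHLH activators that follow the proneural genes in glutamatergic neurons. Neurod1 had values of 53, 60, 5 and 54 in controls and 50, 78, 78 and 17 in cKO. Neurod2 had 228, 321, 18 and 227 in controls and 189, 285, 175 and 76 in cKO. Neurod6 had 172, 318, 23 and 241 in controls and 158, 220, 165 and 53 in cKO. All 3 genes were lowest in control 3, their cKO minimum was in cKO 4, and their groups overlapped. The changes were 0.60 ± 0.71 for Neurod1, 0.30 ± 0.75 for Neurod2 and -0.01 ± 0.70 for Neurod6. Without the low library of each group they were 0.27 ± 0.19, -0.27 ± 0.20 and -0.40 ± 0.22, so that Neurod2 changed its sign. Leaving out control 3 alone gave -0.21 for Neurod1, -0.64 for Neurod2 and -0.83 for Neurod6, and leaving out cKO 4 alone gave 1.08, 0.67 and 0.43.

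Tbr1 is a T-box gene of early-born glutamatergic neurons. Its values were 236, 418, 35 and 293 in controls and 254, 438, 287 and 101 in cKO. Library by library, the cKO values of Tbr1 lay within the range of the controls, apart from the highest. Its change was 0.41 ± 0.66 with all libraries and 0.05 ± 0.24 without control 3 and cKO 4. It was -0.36 without control 3 alone. Fezf2 had 27, 45, 11 and 30 in controls and 15, 32, 19 and 11 in cKO, a change of -0.48 ± 0.41, or -0.64 ± 0.31 without the 2 low libraries. Its difference from the group in control 3 and cKO 4, of -1.51 and -0.87 log2 units, was smaller than that of the bHLH and T-box factors.

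The 2 Emx genes differed in level and in pattern. Emx1 was close to the lower limit of the values, with 14, 15, 1 and 13 in controls and 5, 9, 5 and 1 in cKO. Its groups overlapped through control 3 alone. Its change was -0.81 ± 0.69, or -1.07 ± 0.31 without control 3 and cKO 4, and at such low values the added 1 of the log scale shrinks the difference. Emx2 had 365, 382, 388 and 357 in controls and 337, 361, 360 and 386 in cKO. It was not low in control 3 or cKO 4, where it stood 0.08 and 0.13 log2 units above the other libraries of its group. Emx2 thus went against the description of these genes as followers of cortical tissue. Its change was -0.05 ± 0.06, or -0.06 ± 0.07 without control 3 and cKO 4. The start of Emx2 is overlapped by the antisense gene Emx2os (chr19:59425104-59458635, minus strand), which was listed at 17 to 57. Neurod1 is overlapped by Cerkl on the same strand and Gm26755 on the other, and Eomes by the antisense gene Gm33460, none of which is in the table. No source used here says whether strand was counted, so reads of these pairs may not be separated.

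**Figure D2:**
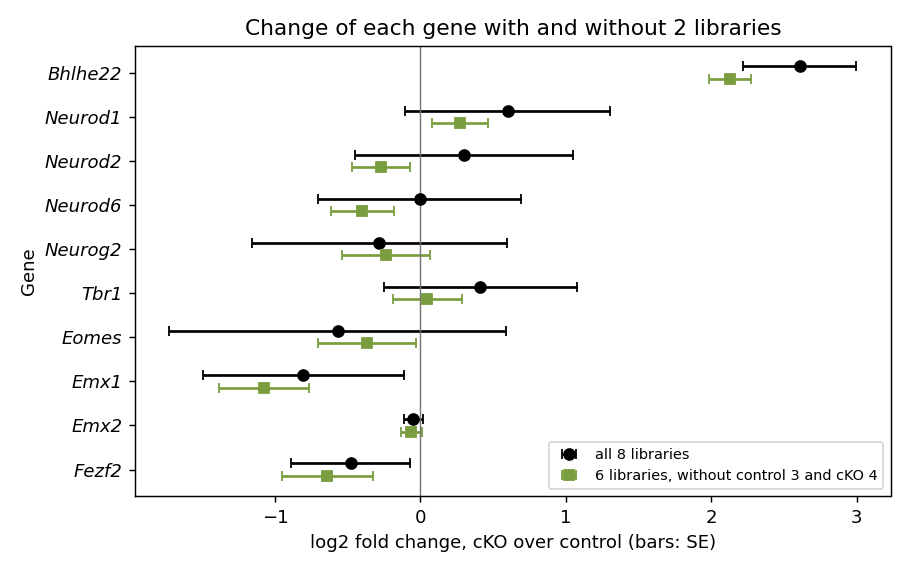
Log2 fold change, cKO over control, of the 10 genes with all 8 libraries (black circles) and with the 6 libraries that remain without control 3 and cKO 4 (green squares). Bars are SE. Bhlhe22 lies at 2.61 and 2.13, and the 9 factors lie between -1.07 and 0.60.

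Of the 9 factors, 3 were higher and 6 lower in cKO, with a mean change of -0.10 and a median of -0.05. Without control 3 and cKO 4, 2 were higher and 7 lower, and the mean change was -0.30. Of the 10 genes, 1 passed the threshold of limma over all genes and 1 had groups that did not overlap, Bhlhe22 in both cases. Over all tested genes these shares were 6.66% and 12.7%. Since the genes were chosen with this contrast known, nothing is read from those counts.

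In order of RPKM in controls, Emx2 was the highest of the 10 genes, at 5.95 ± 0.174. Neurod6 at 3.63 ± 2.39, Neurod2 at 2.62 ± 1.68 and Tbr1 at 2.56 ± 1.65 came next. The ranges of those 3 genes overlapped, but all 3 were low in control 3, so their spread is shared. Within each control, Neurod6 was above Neurod2 and Tbr1. Eomes at 1.26 ± 0.938, Neurog2 at 1.05 ± 0.662, Bhlhe22 at 0.773 ± 0.399 and Neurod1 at 0.716 ± 0.424 also had overlapping ranges. Fezf2 at 0.508 ± 0.248 and Emx1 at 0.381 ± 0.232 were the lowest (SD, n = 4). Bhlhe22 was the seventh of the 10 in controls. In cKO it was the second at 4.07 ± 0.285, below Emx2 at 5.72 ± 0.292. There its mean was above those of Neurod6 at 2.86 ± 1.34, Tbr1 at 2.80 ± 1.44 and Neurod2 at 2.38 ± 1.13. By library this did not hold throughout, since in cKO 2 Tbr1 was at 4.55 and Bhlhe22 at 4.29. The means of the other 5 factors were under 1 RPKM in cKO.

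To set Bhlhe22 against the pallial factors within each library, the mean log2(value + 1) of the 9 factors was taken as a pallial score. The score was 6.69, 6.85, 3.99 and 6.73 in controls 1 to 4 and 6.11, 6.86, 6.39 and 4.51 in cKO 1 to 4. Control 3 and cKO 4 were the lowest of their groups, and the group means of 6.07 ± 1.38 and 5.97 ± 1.02 differed by less than their SD. Bhlhe22 on the same scale lay at a distance of -0.67, -0.33, 0.18 and -0.66 from the score in controls 1 to 4, a negative distance being below it. In cKO 1 to 4 the distance was 2.28, 1.52, 1.85 and 3.69. The smallest distance in cKO, in the library with the highest score, exceeded the largest in controls. Mean distances were -0.37 ± 0.40 in controls and 2.33 ± 0.96 in cKO.

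**Figure D3:**
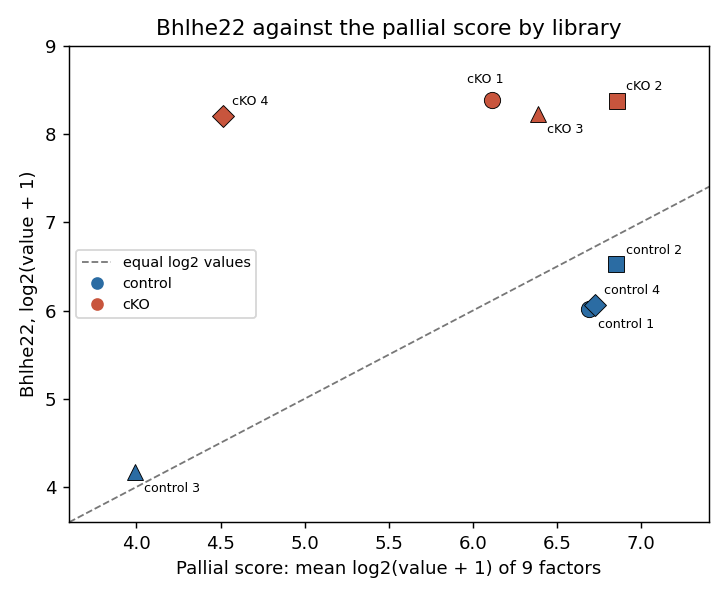
Bhlhe22 as log2(value + 1) on the vertical axis against the pallial score, the mean log2(value + 1) of 9 factors, on the horizontal axis, 1 point per library. The dashed line marks equal log2 values. Controls lie along a rising path from control 3 (score 3.99) to control 2 (score 6.85), whereas the 4 cKO libraries lie at nearly 1 height over scores from 4.51 to 6.86.

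Among controls, the order of the libraries in Bhlhe22 was the same as in the pallial score, control 3 being the lowest, then controls 1, 4 and 2. Among cKO it was not: cKO 1 had the highest Bhlhe22 value, 335, and the third highest score. In cKO 4, where the score was 4.51, Bhlhe22 was 294, against 300 to 335 in the other 3. These orders rest on 4 libraries in each group and were not tested.

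The change of Bhlhe22 less the mean change of the 9 factors was 2.70 on the log2 scale. It was 2.43 without control 3 and cKO 4, 2.66 with the fold changes of the authors' deposited table, and between 2.25 and 2.98 when each library was left out in turn. Without Emx2, which did not move with the other factors, it was 2.71. That choice was made after the values were seen. With the pallial score of each library as a covariate in the fit over all genes, the change of Bhlhe22 was 2.65 ± 0.24.

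A ratio per length was formed with 1 factor, Neurod2, which was picked for this after its values were seen. The ratio of Bhlhe22 to Neurod2 in RPKM was 0.276, 0.279, 0.929 and 0.286 in controls 1 to 4. In cKO 1 to 4 the ratio was 1.74, 1.14, 1.69 and 3.80. In the 3 controls other than control 3 the ratio hardly varied, and in control 3 it rests on a low Neurod2 value, 18. All 4 cKO ratios were above all control ratios.

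The drop within the low libraries separated the genes further. In control 3, Bhlhe22 stood at -2.03 log2 units from the mean of the other 3 controls, a 4.10-fold drop, and 0.236% of tested genes dropped as far or further. The corresponding differences of Neurod1, Neurod2, Neurod6, Neurog2, Tbr1 and Emx1 were -2.90 to -3.75 log2 units. In cKO 4, Bhlhe22 stood at -0.13 log2 units from the other 3 cKO, and 16.2% of genes were as low or lower there. The differences of these 6 factors in cKO 4 were -1.46 to -3.35 log2 units. Eomes dropped further in both libraries, at -3.96 and -4.76. Fezf2 dropped less than Bhlhe22 in control 3, at -1.51, and stood at -0.87 in cKO 4. Emx2 did not drop, at 0.08 and 0.13. In control 3 the value of Bhlhe22 was thus low together with those of 8 of the 9 factors, and in cKO 4 it stayed near that of its group on the log2 scale. That scale gives less weight to a given step in value at the higher level of Bhlhe22 in cKO. In value, Bhlhe22 was 17 in control 3 against 64 to 91 in the other controls. It was 294 in cKO 4, also the lowest of its group, against 300 to 335. Whether a part of Bhlhe22 followed the factors alike in both groups was not tested.

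**Figure D4:**
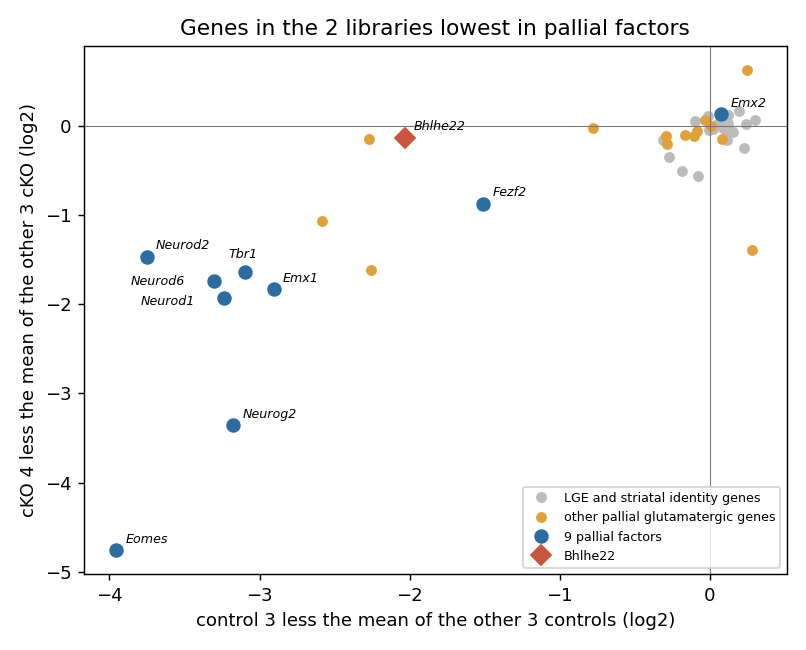
Log2 value of each gene in control 3 less the mean of the other 3 controls (horizontal) against that in cKO 4 less the mean of the other 3 cKO (vertical). Blue points are the 9 factors, the red diamond is Bhlhe22, orange points are 14 other pallial glutamatergic genes and grey points are 25 LGE and striatal genes. Bhlhe22 lies at -2.03 and -0.13, and Eomes at -3.96 and -4.76.

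Other genes of pallial glutamatergic neurons showed the drop in part. Of 14 such genes, 3 were at least 2-fold lower in control 3 and 3 in cKO 4, with Slc17a6 and Nrn1 among them in both libraries and Slc17a7 in cKO 4. Slc17a7 was close to the lower limit of the values, with 4, 15, 9 and 6 in controls and 2, 26, 5 and 2 in cKO. Its difference in cKO 4 rests mostly on the 26 of cKO 2, and it was not low in control 3. Slc17a6, which encodes a vesicular glutamate transporter, had 97, 169, 27 and 144 in controls and 63, 87, 78 and 24 in cKO, a change of -0.65 ± 0.53 (limma adjusted p = 0.576). Of the 14, 1 rose in cKO, Mpped1, by 0.37 ± 0.04 (limma adjusted p = 6.33e-05), and the median change was 0.01, against 0.0059 for all genes. Over all tested genes 6.66% were called, so nothing is read from that count. Mpped1 had 5017 to 5459 in controls and 6584 to 7039 in cKO. It did not follow the drop, at 0.009 log2 units from the other controls in control 3 and 0.002 from the other cKO in cKO 4. Without control 3 and cKO 4, the change of Nrn1, a neuritin gene of excitatory neurons, was -1.06 ± 0.19 on the log2 scale (limma adjusted p = 0.0170). Nrn1 was lowest in those libraries, which were left out after the values were seen. Its spread is thus narrowed by construction, and nothing is read from that call. With all 8 libraries its change was -0.68 ± 0.54 (limma adjusted p = 0.562).

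The known partners of Bhlhe22 and 1 reported target did not pass the test. Prdm8, with which Bhlhe22 forms a repressor complex, had 48, 100, 12 and 69 in controls and 55, 82, 56 and 27 in cKO. It was lowest in control 3 and in cKO 4, as the pallial factors were, and its change was 0.18 ± 0.54 (limma adjusted p = 0.907), or -0.13 ± 0.27 without those libraries. Cdh11, a cadherin gene reported as a target of that complex, had means of 2136 and 2093 in controls and cKO, a change of -0.03 ± 0.06 (limma adjusted p = 0.836). Of these 2 genes 0 passed at an unadjusted limma p of 0.05, and 0 in the authors' deposited table. The E proteins, the common dimer partners of bHLH factors, were between 31.1 and 55.5 RPKM in all libraries. Their changes were 0.03 ± 0.04 for Tcf3, 0.00 ± 0.06 for Tcf4 and 0.09 ± 0.04 for Tcf12 (limma adjusted p = 0.682, 0.982 and 0.263). With no adjustment, 1 of the 3 had a limma p under 0.05.

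Among 27 tested genes of a list of 36 bHLH partners and relatives, 1 rose and 1 fell in cKO, and the median change was -0.04. Over all tested genes 6.66% were called, so the count is near that share and nothing is read from it. Id4, an inhibitor that binds E proteins, rose by 0.36 ± 0.05 (limma adjusted p = 0.000493). Its values were 4198 to 4702 in controls and 5459 to 5989 in cKO, with no overlap. Hey1, a Notch-responsive repressor, fell by 0.30 ± 0.05 on the log2 scale (limma adjusted p = 0.00227), from 599 to 634 in controls to 482 to 504 in cKO. Olig1 and Olig2, the nearest relatives of Bhlhe22 that were listed, had changes of -0.12 ± 0.05 and -0.15 ± 0.06 (limma adjusted p = 0.253 and 0.245). Again 1 rose and 1 fell without control 3 and cKO 4.

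The genes beside Bhlhe22 on chromosome 3 were taken as the 3 nearest tested genes on each side. None of the 6 passed limma's test, and 1 had an unadjusted p under 0.05, both in limma and in the authors' deposited table. Cyp7b1, an oxysterol hydroxylase gene 14.4 kb away, had means of 77.3 ± 2.99 in controls and 97.3 ± 7.46 in cKO. Its change was 0.33 ± 0.10 (limma adjusted p = 0.0987), and its adjusted p ranged from 0.0255, in limma without the mean trend, to 0.289 over the alternatives. Mir124-2hg, host gene of the neuronal microRNA miR-124, 245 kb away on the other side, had a change of 0.04 ± 0.10 (limma adjusted p = 0.882). The other 4, A930001A20Rik, Ythdf3, Armc1 and Mtfr1, lie much further off, at 1074 to 3051 kb. They had limma adjusted p of 0.442 to 0.868.

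RefSeq's promoter windows on GRCm38.p6, from 250 bases before to 50 after the annotated start, were found for 9 of the 10 genes, all but Bhlhe22. The motifs searched, of 6 letters each and on both strands, were picked after the sequences had been looked at. They are CATATG, the E-box preferred by the Olig and Bhlhe22 group, CAGATG, which reads as CATCTG on the other strand and is an E-box of the proneural and NeuroD factors, and TAATTA, a core of many homeodomain sites. The windows of Neurod1 (chr2:79456587-79456886, minus strand), Neurod2 (chr11:98329596-98329895, minus strand) and Tbr1 (chr2:61804203-61804502, plus strand) are shown because they hold such a match in factors that were low together in control 3 and cKO 4. Capitals mark CATATG in Neurod1 and Neurod2 and TAATTA in Tbr1.
Neurod1: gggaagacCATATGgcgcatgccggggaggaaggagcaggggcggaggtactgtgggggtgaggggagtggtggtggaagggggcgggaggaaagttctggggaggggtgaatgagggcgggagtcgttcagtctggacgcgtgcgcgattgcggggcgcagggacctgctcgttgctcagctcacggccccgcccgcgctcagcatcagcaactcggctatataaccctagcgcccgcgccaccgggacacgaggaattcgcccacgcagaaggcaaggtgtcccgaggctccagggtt
Neurod2: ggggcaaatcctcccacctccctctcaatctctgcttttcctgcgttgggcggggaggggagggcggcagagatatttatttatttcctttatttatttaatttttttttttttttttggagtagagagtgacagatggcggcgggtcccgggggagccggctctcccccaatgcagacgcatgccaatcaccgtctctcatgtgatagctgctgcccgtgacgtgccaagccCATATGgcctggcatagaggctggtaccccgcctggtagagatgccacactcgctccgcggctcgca
Tbr1: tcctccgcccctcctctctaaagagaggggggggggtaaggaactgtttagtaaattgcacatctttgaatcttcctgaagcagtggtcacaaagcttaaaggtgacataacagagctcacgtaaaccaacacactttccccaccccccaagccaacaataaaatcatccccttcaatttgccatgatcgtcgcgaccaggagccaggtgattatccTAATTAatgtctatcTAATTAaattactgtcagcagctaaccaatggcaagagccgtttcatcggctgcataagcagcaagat
Counted from the annotated start, CATATG begins at position -242 in Neurod1 and -17 in Neurod2. It is in 2 of the 9 windows and in 3.91% of 32851 RefSeq promoter windows. CAGATG is in 1 of the 9, Neurod2, at position -118, and in 17.2% of all windows. TAATTA is in 2 of the 9, at positions -33 and -18 in Tbr1 and 36 in Emx2, and in 5.29% of all windows. A match is a description of the letters only.

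The genes whose pattern over the 8 libraries was most like that of Bhlhe22 were sought among 12398 genes by Pearson's r on the log2 scale. The libraries fall into groups and share their scaling, so r is a description. The first were Fam169a (r = 0.996), Trem2 (0.988), Gjd2 (0.985), Anks1b (0.983) and Lap3 (0.982). Gjd2, which encodes the neuronal gap junction protein connexin 36, had 133, 138, 103 and 128 in controls and 202, 214, 209 and 208 in cKO. As for Bhlhe22, its lowest value was in control 3 and its cKO values were nearly level. Gjd2 rose by 0.73 ± 0.10 (limma adjusted p = 0.000839). Fam169a rose by 0.24 ± 0.05 (limma adjusted p = 0.0156, and 0.0788 without control 3 and cKO 4). Anks1b and Lap3 did not pass (limma adjusted p = 0.0749 and 0.175).

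The genes most like the pallial score were Tfap2d (r = 0.964), Sec24d (0.962), Ctdspl (0.957), Gpr63 (0.954) and Egfl8 (0.953). Tfap2d, an AP-2 family gene, had 73, 98, 12 and 77 in controls and 65, 116, 91 and 29 in cKO. Its lowest values were again in control 3 and cKO 4, and its change was 0.38 ± 0.59 (limma adjusted p = 0.801). The adjusted p of the other 4 was 0.860 to 0.995. The genes most like Bhlhe22 and those most like the score had no member in common.

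Genes of other cells that such a dissection could hold were read beside Bhlhe22. Over all tested genes 6.66% were called in either direction, the share to set beside each count of these lists. Of 12 microglial genes, 10 rose and 0 fell in cKO, with a median change of 0.80, and their summed value was 2308 to 2571 in controls and 3503 to 4276 in cKO. Trem2, a microglial receptor gene, had 32, 40, 20 and 37 in controls and 94, 86, 94 and 77 in cKO and rose by 1.46 ± 0.20 (limma adjusted p = 0.000871). The next largest changes were 1.11 ± 0.16 for Tyrobp, a signalling adaptor, and 0.91 ± 0.11, 0.90 ± 0.10 and 0.84 ± 0.11 for the complement genes C1qa, C1qc and C1qb. The microglial sum moved with genotype as Bhlhe22 did, and its part in the value of Bhlhe22 was not tested. The counts were the same without control 3 and cKO 4, where again 10 rose and 0 fell.

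Of 7 Cajal-Retzius genes, which mark early neurons of the cortical surface, 0 rose and 2 fell in cKO, with a median change of -0.61. Reln, the secreted glycoprotein reelin, had 4597, 3750, 3743 and 4760 in controls and 1962, 1540, 1846 and 1330 in cKO. Reln fell by 1.34 ± 0.12 on the log2 scale (limma adjusted p = 3.22e-05), and Ndnf, a neurotrophic factor gene, by 1.10 ± 0.15 (limma adjusted p = 0.000951). Trp73, of the same list, had a mean of 14.75 in both groups and a change of -0.02 ± 0.28 (limma adjusted p = 0.987). Calb2 and Ebf3 had changes of -0.23 ± 0.18 and 0.10 ± 0.30 (limma adjusted p = 0.564 and 0.908). Lhx5 and Ebf2, both at low values, had changes of -1.24 ± 0.63 and -0.61 ± 0.32 (limma adjusted p = 0.331 and 0.336). Of the 7 genes, 6 had a change below 0, and 2 of those passed. Which cells held the Reln RNA was not tested. Among 7 claustrum and amygdala genes, 1 fell, Bdnf, by 1.65 ± 0.42 on the log2 scale (limma adjusted p = 0.0369, up to 0.178 over 18 alternatives, with the call lost in 11, among them the fit without control 3 and cKO 4). Nr4a2, an orphan nuclear receptor of the claustrum, had 25, 145, 23 and 52 in controls and 86, 107, 110 and 186 in cKO, with overlapping groups and a change of 1.33 ± 0.48 (limma adjusted p = 0.149, and 0.0377 with the replicate number as a block). It was 0.79 ± 0.51 without control 3 and cKO 4.

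Of 5 tested genes of the cortical hem and pallial progenitors, 1 rose in cKO, Gas1, a membrane protein of Hedgehog signalling, by 0.67 ± 0.07 (limma adjusted p = 0.000137). Of 7 thalamic genes 1 fell, the homeobox gene Gbx2, with a change of -1.81 ± 0.34 (limma adjusted p = 0.00649). Of 25 LGE and striatal genes, 8 rose and 4 fell, against 6.66% called over all genes. Those that rose include Isl1, whose value does not show the deleted part. In control 3 and in cKO 4, 0 of the 25 were 2-fold lower. Over all genes those shares were 1.42% and 1.60%, so nothing is read from the 0. The 5 largest changes among those that passed were -5.15 ± 0.12 for Ikzf1, an Ikaros zinc-finger gene, -2.93 ± 0.13 for Tac1 and -1.77 ± 0.08 for Pdyn, neuropeptide genes of direct-pathway neurons, -0.74 ± 0.11 for Ppp1r1b and 0.63 ± 0.05 for Dlx1. The median change of the 25 was 0.04, with 16 above 0, and their summed value was 143995 to 155193 in controls and 154616 to 162193 in cKO. Without control 3 and cKO 4, 6 of the 25 rose and 4 fell. The values are scaled and have 1 direction of variation removed, so SD and SE are too small to a degree. The p-values measure the spread between these 8 libraries.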

How the data were processed

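Per the labels' protocols, poly(A) RNA was isolated from 1 LGE sample per embryo, a directional kit was used for the libraries, and sequencing gave 85 bp single reads. Per the submitters' processing notes, STAR, featureCounts and edgeR were used on mm10. Strand settings were not given in those sources. The authors' deposited values named raw are a score rather than counts. Their upper quartiles lay between 1624 and 1635, and 1 direction of the 8 libraries had a singular value of 0.000241 against 0.0433 for the next (5711 genes with a mean above 1000). Depth is unknown. The authors' deposited RPKM, log2 fold changes and p-values were also used. The fold change column is named as control against cKO but has the sign of cKO over control.

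Groups came from the sample labels. The plan named limma for scaled values. Genes that reached 1 in 4 or more libraries were fitted as log2(value + 1) with limma 3.58.1 in R 4.3.3 with data.table, version 1.17.8, using a mean trend and Benjamini-Hochberg adjustment over 15698 genes (7 left out), and the fit was tested on simulated data. Tables and plots used Python 3.11.15, pandas 2.3.3 and matplotlib 3.10.9. The members and the 9 lists (124 entries) were chosen with earlier results of these data known. Named genes are the members, Isl1, the 5 genes most like Bhlhe22 and the 5 most like the score (scaled mean of at least 1 per 1000000, no sex-linked genes or models without a proper symbol), Prdm8, Cdh11, the E proteins, neighbours and list genes that passed (the 5 largest changes where more than 5 did). Others, such as Slc17a6, Nrn1, Nr4a2, Trp73, Calb2, Ebf3, Lhx5, Ebf2, Olig1 and Olig2, were named after their values were seen. Of the genes counted as 2-fold lower in control 3, 1 is not reported here. GENCODE M21 held 97.8% of the symbols. Alternatives were another pseudocount, filter, scaling, unit and design, the deposited comparison, and leaving out libraries.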

Additional observations from a re-analysis of the deposited data

Results flagged for a closer look

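In 3 of the 24 sets of 4 values looked at (each of the 10 genes, the pallial score and the distance of Bhlhe22 from it, in each group), 1 library lay far from the other 3. The library was control 3 each time. The gap to the nearest value, as a share of the range, was 0.873 for Neurod1, with a value of 5 against 53 to 60 in the other controls. It was 0.857 for Emx1, with a value of 1 against 13 to 15, and 0.943 for the pallial score, at 3.99 against 6.69 to 6.85. Each share is above Dixon's critical value for 4 values, given as a description, since the choice of the genes used these values and the drop in control 3 was already known. Neurod1 and Emx1 are part of the score, so these results are not independent, and chance marks some such sets when many are looked at.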

How the results depend on the processing

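Bhlhe22 was higher in cKO in all 19 alternatives, by 2.10 (without control 3) to 2.88 log2 units. Its change less that of the factors ranged from 2.25 to 2.98 over 20. The count of all genes passing was 610 without control 3 and cKO 4, and 659 (without control 4) to 959 with 1 library left out. With the score as a covariate the count of members called was 2. The second was Neurod1, which is part of the score, so the fit narrows its spread by construction and nothing is read from it. Without the mean trend, 1 gene beside Bhlhe22 passed, Cyp7b1. Of the other pallial glutamatergic genes 2 passed without control 3 and cKO 4, and 1 to 2 with 1 library left out. The second was Nrn1, which was low in control 3, so leaving that library out narrows its spread by construction. The cause of the other changes was not tested. None of the listed results reversed its direction past the threshold. Leaving out control 3 or cKO 4 alone changed the sign of 6 factors between those 2 settings (Neurod1, Neurod2, Neurod6, Neurog2, Tbr1 and Eomes), with Eomes at -1.56 and 0.62.

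The replicate numbers did not pair the libraries (correlations of same-numbered deviations 0.212, 0.0228, -0.0953 and -0.530). With the replicate block, 1199 genes passed, Bhlhe22 stayed at 2.61 and its difference from the factors at 2.70. Depth is unknown, so no counting error can be given for low genes such as Emx1.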
